A study of Mus musculus with 74 samples.

Results

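Proneural transcription factors and genes of young neurons were followed through a study that drove mouse fibroblasts towards induced neural stem cells and related states. The set held 9 genes, chosen by symbol. Neurog1, Neurog2 and Neurod1 encode proneural basic helix-loop-helix transcription factors. Elavl3 and Elavl4 encode Hu RNA-binding proteins of neurons. Dcx, Tubb3, Stmn2 and Map2 encode proteins of the neuronal cytoskeleton. All 9 were found in both expression tables, among 21241 genes in the table of the NSC-medium experiment and among 20558 genes in the table of a parallel experiment.

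Proneural factors bind DNA with E proteins and switch on the neuronal programme, while Notch signalling, Hes and Id proteins hold progenitors back from it. Cells that leave the progenitor state express Neurog genes briefly, then Neurod1, the Hu proteins and microtubule proteins such as doublecortin (Dcx) and class III beta-tubulin (Tubb3). Neural stem cells kept in bFGF and EGF are progenitors that can still produce neurons.

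The starting cells were mouse embryonic fibroblasts (MEFs) that carry a Sox2-GFP reporter, transduced with the reverse transactivator M2rtTA and with lentiviral factors whose expression needs doxycycline (Dox). In the first experiment cells were kept in neural stem cell (NSC) medium with bFGF and EGF, with Dox for 18 days, and were sampled at days 4, 8, 12 and 18 on Dox and at days 24 and 30 after its removal. Each cocktail called BKM contained Brn4, Klf4 and c-Myc. BKM_Sox2 added Sox2, BKM_Sox17 added wild-type Sox17, and BKM_FNV added eSox17FNV, an engineered Sox17. K_FNV was Klf4 with eSox17FNV only. In the parallel experiment Klf4, c-Myc and eSox17FNV (KM_FNV) were expressed in N2B27 medium for days 4 and 8, and the cells were then taken to NSC medium or to LIF/2i medium, on Dox at days 12 and 16 and without it at days 20 and 24. MEFs at passage 1, and primary NSCs and the established lines iNSC_BKMF and iNSC_KF at passage 15, were the references, and MEF, NSC and iNSC_BKMF libraries stood in both tables. Each group had 2 libraries unless stated. The labels do not say whether these came from separate cultures, and a p value here reflects nothing but the spread between libraries. RNA came from whole cultures, in which fewer cells of a type and less RNA per cell cannot be told apart.

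Values were the authors' normalized tag counts, called levels here. Read depth is unknown, since normalized columns summed to nearly the same total (17698392 to 17710071 for the NSC-medium libraries, 17848683 to 17866021 for the parallel ones). Levels are compared only between libraries of the same gene and the same table. BKM_Sox2 day 24 replicate 1 had a median level of 32 where every other library of its table had 166, and a correlation of 0.0578 with its replicate where other pairs reached at least 0.949. It was left out of the fits, so BKM_Sox2 had 1 library at day 24, and the labels gave 1 library of BKM_Sox2 and 1 of BKM_Sox17 at day 30. Fold changes are log2 differences of the level plus 2, with their standard error (SE), from limma with Benjamini-Hochberg adjustment over all genes tested. Genes count as called at an adjusted p under 0.05 together with a difference of at least 2-fold. Where a group was listed at 0, the size of a fold change depends on the added 2, and some such fold changes are not given.

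The 9 genes lay on 8 chromosomes of GRCm38, the build that the submitters name mm10. All are protein-coding: Neurog1 at chr13:56250478-56252163, Neurog2 at chr3:127633135-127635631, Neurod1 at chr2:79452521-79456751, Elavl3 at chr9:22015005-22052023, Elavl4 at chr4:110203722-110351909, Dcx at chrX:143855842-143933311, Tubb3 at chr8:123411424-123422015, Stmn2 at chr3:8509360-8561606 and Map2 at chr1:66175273-66442583. The strand setting of the counting was not given in the sources used here. Without it, reads of Neurod1 and Map2 cannot be told apart from those of Gm26755 and Gm10558, which overlap them on the opposite strand. Neurod1 also overlaps Cerkl, Elavl3 overlaps Gm49318 and Tubb3 overlaps Gm20388 on the same strand, where a strand setting would not separate the reads, so these levels are uncertain to that extent. Of all 50-base stretches of the annotated transcripts, 5.71% in Neurod1, 3.11% in Elavl3, 0.875% in Stmn2 and 0.181% in Dcx also occurred in another gene. None did in the other 5 genes.

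Upstream sequence is shown for Neurog1, Elavl3 and Dcx, a factor, an RNA-binding protein and a cytoskeletal protein that rose together in BKM_FNV cells after Dox. The sequences are from RefSeq on GRCm38.p6, on the minus strand and 5′ to 3′, trimmed to the bases outside every annotated transcript of the gene. Capitals mark matches to a Sox core motif (ACAAT, or ATTGT on the other strand) or to the octamer motif of POU factors (ATGCAAAT), which do not overlap.
Neurog1: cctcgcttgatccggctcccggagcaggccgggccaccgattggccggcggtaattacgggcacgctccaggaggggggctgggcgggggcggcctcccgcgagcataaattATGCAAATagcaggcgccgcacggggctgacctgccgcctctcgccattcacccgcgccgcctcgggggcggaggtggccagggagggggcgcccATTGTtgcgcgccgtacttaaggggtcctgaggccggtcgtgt
Elavl3: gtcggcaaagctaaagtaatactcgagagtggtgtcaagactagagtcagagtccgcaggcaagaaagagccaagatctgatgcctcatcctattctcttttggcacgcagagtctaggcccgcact
Dcx: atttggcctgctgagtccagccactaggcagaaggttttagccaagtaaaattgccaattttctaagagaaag
The Neurog1 window held 1 octamer, with 137 bases between its first base and the start site. It also held 1 Sox core, with 42 bases between its first base and the start site. Among 32851 promoter windows of the same length, 1.6% held the octamer and 27.7% the Sox core on either strand. The E-box CANNTG, the class of site bound by proneural factors, had no match in any of the 3 windows, while 66.2%, 43.6% and 27.9% of all windows of their lengths of 250, 127 and 73 bases held one. These letters are a description of the windows and do not show binding or its absence.

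Primary NSCs had more of 5 of the 9 genes than MEFs and less of 2, against 17.7% and 16.7% of all genes. Neurog1 was at 4 in both NSC libraries and Neurog2 at 20 and 45, and both were listed at 0 in MEFs. Elavl3, at 45 and 48 in NSCs, and Dcx, at 340 and 357, were also listed at 0 in both MEF libraries. All 4 were called higher in NSCs. The Neurog1 call is a description, since a gene needed a level of 10 in 2 libraries to be tested and neither group reached it. Map2, the dendritic microtubule-associated protein, stood at 78139 and 34130 in NSCs and at 503 and 518 in MEFs, a difference of 6.66 ± 0.28 (SE; limma, Benjamini-Hochberg adjusted p = 3.63e-18). The level 78139 is the highest in every library, so that Map2 was the top gene of 1 NSC library, of both iNSC_BKMF libraries (78139 and 78139) and of 1 iNSC_KF library (78139 and 34130). Such a level does not grade the lines further. Stmn2, which encodes the growth-cone protein stathmin 2, went the other way: it was listed at 0 in all 6 libraries of NSCs and the 2 lines and was at 394 and 383 in MEFs. Tubb3 was lower in NSCs (429 and 513) than in MEFs (884 and 1011), by -1.01 ± 0.36 with an adjusted p of 0.0176 in limma, and fell short of 2-fold without MEF replicate 2 (-0.91) or NSC replicate 1 (-0.88). Neurod1 (55 and 86 in MEFs, 210 and 197 in NSCs) and Elavl4 (319 and 304, 359 and 315) were not called. MEF cultures were therefore not empty of these transcripts at the start, and neural stem cell lines did not have all of them.

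The labelled cell types stood apart in their own markers. Summed over 12 neural stem cell genes, levels were 195511 and 195812 at the ends of the NSC range and 2069 to 2170 in MEFs. Over 8 fibroblast genes they were 179336 to 179833 in MEFs and 190 to 283 in NSCs, where Postn, Pdgfrb and Lum were listed at 0.

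Stmn2 and Dcx had risen in all 4 cocktails by day 4, while Neurog1 was at or near 0 and Neurod1 was not called in any. Against MEFs, 4 members rose in BKM_FNV (10.8% of all genes rose), 5 in BKM_Sox17 (10.1%), 2 in BKM_Sox2 (9.89%) and 5 in K_FNV (10.2%), and none fell. Stmn2 reached 5533 and 6510 in BKM_FNV, 5450 and 5961 in BKM_Sox17, 1736 and 2654 in BKM_Sox2, and 5290 and 5876 in K_FNV. Every one of these libraries lay above both MEF libraries, and the differences were 3.94, 3.87, 2.46 and 3.84 (SE 0.29 for each). Dcx was at 127 to 594 in all 41 factor libraries of the experiment other than BKM_FNV after Dox, where MEFs had 0. Tubb3 was at 2122 and 2208 in BKM_FNV, 4178 and 4579 in BKM_Sox17 and 2157 and 2113 in K_FNV, and rose by 1.19, 2.21 and 1.17. In BKM_Sox2 it was at 1228 and 1367 and was not called (0.45, adjusted p = 0.325). Tubb3 in K_FNV was not called without MEF replicate 1 (1.08), and neither the BKM_FNV nor the K_FNV call was made with the doubted library in the fit. Neurog2 was at 13 and 12 in BKM_FNV, 25 and 17 in BKM_Sox17 and 3 and 5 in K_FNV, which passed against MEFs listed at 0. Elavl3 passed in BKM_Sox17 (4 and 11) and in K_FNV (13 and 13). Neurod1 was at 73 and 77 in BKM_FNV, 83 and 125 in BKM_Sox17, 81 and 128 in BKM_Sox2 and 46 and 25 in K_FNV, around the 55 and 86 of MEFs. Elavl4 and Map2 were short of 2-fold in all 4 cocktails (-0.07 to 0.43 and -0.20 to 0.75). The 4 comparisons share the 2 MEF libraries.

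On Dox, eSox17FNV and wild-type Sox17 in the same BKM cocktail gave different levels of 3 members. Averaged over the 4 days, Neurog2, Elavl3 and Tubb3 were lower in BKM_FNV than in BKM_Sox17, and none was higher. Of all genes tested, 1.43% were called lower and 2.29% higher. For all 3 the libraries of the 2 cocktails did not overlap at any day. That describes the same values that gave the calls, and how many of all genes did so was not counted.

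Neurog2, a factor that starts neurogenesis in the cortex and spinal cord, was at 141 and 186 in BKM_Sox17 at day 8, the highest level of any group in the table. BKM_FNV had 7 and 10 on that day. BKM_Sox17 then held 15 and 16 at day 12 and 8 and 12 at day 18, while BKM_FNV had 1 and 0, then 0 and 0. In BKM_Sox17 Neurog2 was thus highest at day 8, far above BKM_FNV. The mean difference was -2.51 ± 0.21 (limma, Benjamini-Hochberg adjusted p = 5.31e-10).

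Elavl3, the pan-neuronal Hu protein gene HuC, was also highest in BKM_Sox17 at day 8 among the Dox days. In BKM_Sox17 it was at 4 and 11 at day 4, 408 and 494 at day 8, 129 and 202 at day 12, and 66 and 34 at day 18. In BKM_FNV it was at 2 and 2, 17 and 19, 3 and 5, and 6 and 4. Both cocktails had their highest level on Dox at day 8, far apart from each other. The mean difference was -3.32 ± 0.22 (adjusted p = 6.74e-12, limma).

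Tubb3 differed at a much higher level. BKM_Sox17 had 6372 and 6068 at day 8, 1934 and 2863 at day 12 and 729 and 502 at day 18. BKM_FNV had 2753 and 2820, 583 and 216, and 64 and 65 on the same days. Tubb3 in BKM_FNV at day 18 was thus below its level in MEFs. The mean difference was -2.02 ± 0.18 (adjusted p = 2.00e-09, limma), and it was wider at days 12 and 18 than at days 4 and 8, by -1.87 ± 0.36 (adjusted p = 0.00121), the only member whose difference changed in that test (0.954% of all genes were called lower). With the doubted BKM_Sox2 library in the fit this last call was lost.

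The 6 other members were not called over the 4 days. Map2 was lower in BKM_FNV by -0.67 ± 0.14 (adjusted p = 0.000575) and Elavl4 by -0.23 ± 0.07 (adjusted p = 0.0137), both short of 2-fold. Stmn2 differed by -0.31 (adjusted p = 0.119), Dcx by -0.14 (adjusted p = 0.219) and Neurod1 by 1.77 ± 0.72 (adjusted p = 0.0770). Neurod1 in BKM_Sox17 was unstable between replicates, at 0 and 56 at day 8, 0 and 61 at day 12 and 35 and 0 at day 18, while BKM_FNV stayed between 41 and 77. Neurog1 was listed at 0 in all 8 BKM_FNV libraries on Dox and was at 0 to 2 in BKM_Sox17.

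**Figure D1:**
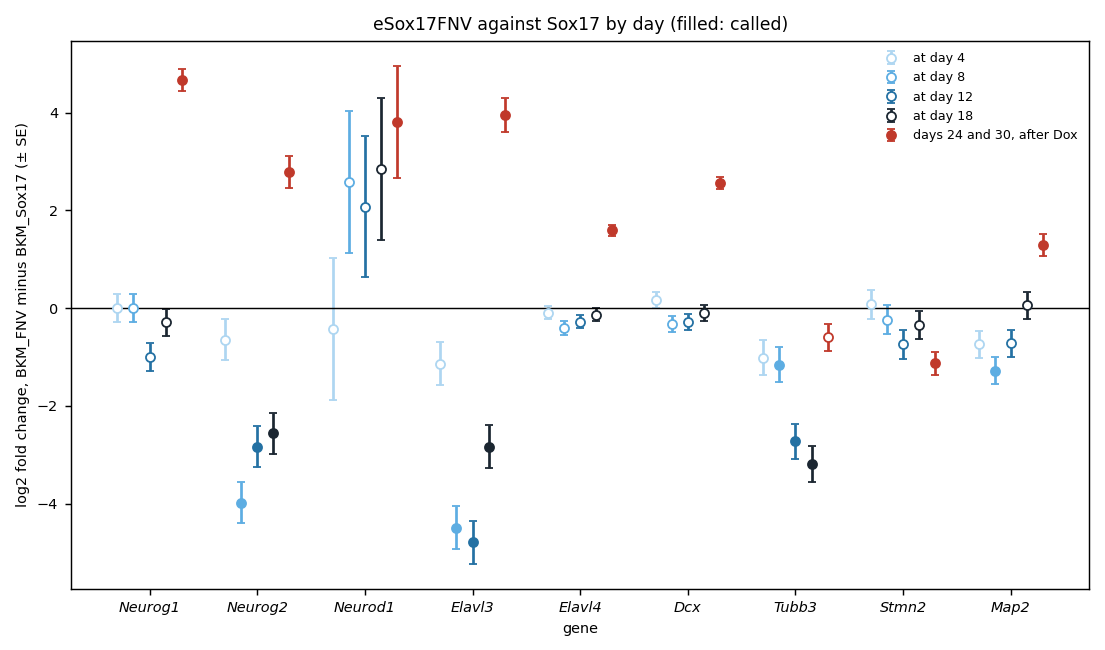
Log2 difference of BKM_FNV minus BKM_Sox17 (vertical axis, log2 of level plus 2) for each of the 9 genes at days 4, 8, 12 and 18 on Dox and after Dox (days 24 and 30 together); points are estimates, bars are SE, and filled points were called. Neurog2, Elavl3 and Tubb3 lay below 0 from day 8 to day 18, and after Dox all members but Tubb3 and Stmn2 lay above 0.

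By day, no member passed at day 4 in limma (1.47% of all genes did), although 3 had an unadjusted p under 0.05: Elavl3 (-1.14, adjusted p = 0.142), Tubb3 (-1.01, adjusted p = 0.104) and Map2 (-0.74, adjusted p = 0.127). At day 8, 4 members were lower (2.07% of all genes): Neurog2 by -3.98 ± 0.41, Elavl3 by -4.50 ± 0.44, Map2 by -1.28 ± 0.28 and Tubb3 by -1.16 ± 0.36. Map2 was then at 857 and 975 in BKM_FNV and at 2248 and 2208 in BKM_Sox17. The Tubb3 call at day 8 (adjusted p = 0.0290) was lost without any 1 of the 4 libraries compared. At day 12 (2.12%) and day 18 (1.69%) the 3 lower members were Neurog2, Elavl3 and Tubb3 again, by -2.84, -4.79 and -2.72 at day 12 and by -2.56, -2.84 and -3.19 at day 18. Fitted on the compared libraries alone, each of these days kept 1 call.

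The level of the Sox17 gene, which counts delivered and endogenous transcripts together, was set beside these results. At day 4 it was 26505 and 34130 in BKM_FNV and 9479 and 9217 in BKM_Sox17. At days 8, 12 and 18 the ranges of the 2 cocktails overlapped: 29410 and 21719 against 26505 and 23871, then 8534 and 8385 against 8385 and 10522, then 4018 and 5876 against 6994 and 4579. All 8 pluripotency markers of a fixed list were higher in BKM_FNV on Dox. The part of either in the result was not tested.

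At day 18 on Dox, Tubb3 was lower than at day 4 in every cocktail, and the other members differed between cocktails. The course was not a steady fall: the mean of Tubb3 first went from 2165 to 2786.5 at day 8 in BKM_FNV and from 4378.5 to 6220 in BKM_Sox17. From day 4 to day 18 Tubb3 fell by 5.03 ± 0.36 in BKM_FNV, by 2.85 ± 0.36 in BKM_Sox17, by 1.37 ± 0.36 in BKM_Sox2 and by 2.62 ± 0.36 in K_FNV. Its day 18 levels were 837 and 297 in BKM_Sox2 and 243 and 492 in K_FNV. The fall in BKM_Sox2 was not called without its day 18 replicate 2 (-0.63) or with the doubted library in the fit. Stmn2 fell from day 4 in BKM_FNV (to 1367 and 1851, by 1.91), BKM_Sox17 (to 1912 and 2143, by 1.49) and K_FNV (to 2725 and 1922, by 1.28), but was spread from 1176 to 2863 in BKM_Sox2 at day 18 and was not called there (-0.23, adjusted p = 0.594).

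In BKM_FNV these 2 genes and Neurog2, listed at 0 at day 18, made 3 members lower at day 18 than at day 4, and none was higher (11.5% of all genes were lower). BKM_Sox17 had 1 member higher, Elavl3 by 2.49 ± 0.44, and 3 lower (9.37% and 9.67%). The lower ones were Tubb3, Stmn2 and Neurod1. The level of Neurod1 went from 83 and 125 to 35 and 0, a call with an adjusted p of 0.0458 in limma that the replicate block raised to 0.0548 and that was also lost without either day 4 library. In BKM_Sox2, 3 members rose and Tubb3 fell (8.95% and 8.01% of all genes): Neurog2 went from 2 and 2 to 29 and 26 (2.88 ± 0.41) and Elavl3 from 1 and 0 to 35 and 10 (3.10 ± 0.44). Neurog1 went from 0 and 0 to 5 and 1, a description, since both groups stayed below the level of 10 needed for testing. Its rise was lost without day 18 replicate 1 or with the doubted library in the fit. In K_FNV 4 members fell and none rose (4.97% of all genes fell): Tubb3, Stmn2, Map2 from 834 and 836 to 222 and 267 (by 1.77 ± 0.28), and Elavl3 from 13 and 13 to 6 and 2 (by 1.41 ± 0.44). The Elavl3 call in K_FNV was lost without day 18 replicate 2 or either day 4 library.

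**Figure D2:**
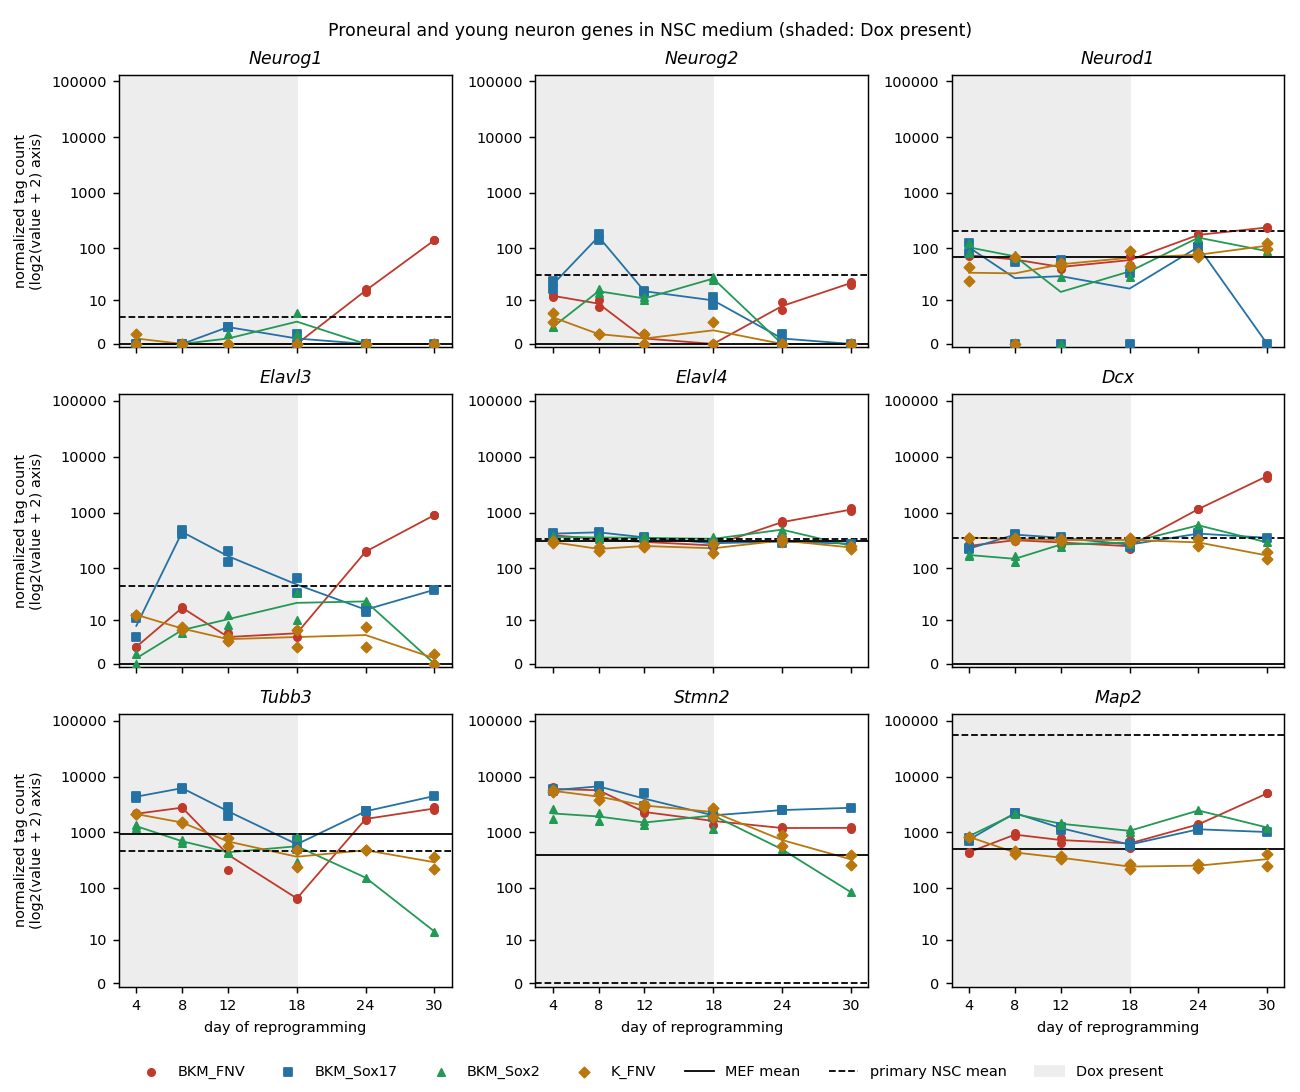
Levels (vertical axis, log2 of level plus 2) of the 9 genes by day (horizontal axis) in the NSC-medium experiment; each point is 1 library, lines join group means, the shaded span is the Dox period, and horizontal lines give the MEF mean (solid) and the NSC mean (dashed). BKM_FNV lay above the other cocktails in Neurog1, Elavl3, Elavl4, Dcx and Map2 at day 30, while Tubb3 was highest in BKM_Sox17.

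The Sox2 cocktail was compared with both others on Dox. Averaged over the Dox days, 4 members were higher in BKM_Sox17 than in BKM_Sox2 (2.12% of all genes): Elavl3 by 3.16 ± 0.22, Tubb3 by 1.90 ± 0.18, Neurog2 by 1.21 ± 0.21 and Stmn2 by 1.18 ± 0.15. These are means over days, and at day 18 the order of Neurog2 turned, with 8 and 12 in BKM_Sox17 against 29 and 26 in BKM_Sox2. Between BKM_FNV and BKM_Sox2 only Neurog2 passed, lower by 1.29 on the log2 scale in BKM_FNV (adjusted p = 1.58e-05; 2.81% of all genes were lower). Map2 was close to the size threshold in that comparison (-0.98 ± 0.14). It too is a mean over days, in which opposite days can cancel, and single days were not tested. At day 4 Neurog2 was higher in BKM_FNV, at 12 and 13 against 2 and 2. Tubb3 was higher in BKM_FNV at day 8 (2753 and 2820 against 645 and 749) and lower at day 18 (64 and 65 against 297 and 837). As a mean over the Dox days, leaving Brn4 and c-Myc out of the cocktail moved no member past the thresholds. K_FNV against BKM_FNV gave 0 calls in limma, where 14.5% of all genes were called. An unadjusted p under 0.05 was met by 5 members, and all 5 also had an adjusted p under 0.05 at differences short of 2-fold, namely Neurog2 (-0.61), Elavl4 (-0.35), Dcx (0.27), Tubb3 (0.60) and Map2 (-0.64). Single days, which were not tested, went both ways. Elavl3 was at 13 and 13 in K_FNV against 2 and 2 at day 4, and at 6 and 7 against 17 and 19 at day 8. Map2 was at 834 and 836 against 435 and 453 at day 4, and at 222 and 267 against 532 and 743 at day 18. Tubb3 at day 18 was at 243 and 492 against 64 and 65.

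After Dox was removed, Neurog2 and Elavl3, which were called lower with the engineered than with the wild-type Sox17 on Dox, were called higher with it. At days 24 and 30, 7 members were higher in BKM_FNV than in BKM_Sox17 and 1 was lower, against 9.67% and 8.15% of all genes. The Neurog1 call among the 7 is a description, as set out below.

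Among the proneural factors, Neurog1 was at 15 and 17 in BKM_FNV at day 24 and at 140 and 143 at day 30. It was listed at 0 in every fitted library of BKM_Sox17, BKM_Sox2 and K_FNV on those days, and no other fitted library of the table held more than 5. The doubted BKM_Sox2 library held 16. Neurog1 reached the level of 10 needed for testing in 4 fitted libraries of this table, all of them BKM_FNV after Dox. It was tested only because it was high there, so its calls in this table are a description and no p is given. Neurog2 was at 6 and 9, then 24 and 21, in BKM_FNV, against 0 and 1, then 0, in BKM_Sox17. The Neurog2 groups did not overlap, and the difference was 2.77 ± 0.33 (adjusted p = 5.59e-08). Neurod1, which follows the Neurog factors in neuronal differentiation, was at 172 and 180, then 246 and 233, in BKM_FNV. In BKM_Sox17 it was at 107 and 106 at day 24 and was listed at 0 in the single library of day 30, so the fitted difference (3.81 ± 1.15, adjusted p = 0.00647) holds 1 library at 0. At day 24 alone both BKM_FNV libraries lay above both BKM_Sox17 libraries.

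Both Hu protein genes stood above the other cocktails. Elavl3 was at 198 and 202, then 899 and 918, in BKM_FNV, and at 18 and 15, then 40, in BKM_Sox17. The difference was 3.95 ± 0.35 (limma, adjusted p = 2.52e-10). Elavl4, the HuD gene, was at 649 and 705, then 1199 and 1073, in BKM_FNV. In the 41 other factor libraries of the table it stayed between 186 and 497, a range that took in MEFs and NSCs. Its difference from BKM_Sox17 was 1.59 ± 0.11 (adjusted p = 1.12e-12).

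The cytoskeletal genes divided. Dcx was at 1160 and 1160 at day 24 and at 4809 and 4240 at day 30 in BKM_FNV, and at 426 and 417, then 355, in BKM_Sox17. This was the highest level of Dcx in any group, above NSCs and both lines. The difference was 2.56 ± 0.13 (adjusted p = 2.90e-15, limma), but with the doubted library in the fit, in which Dcx was listed at 0, the adjusted p was 0.0509. Map2 was at 1360 and 1437, then 5008 and 5008, in BKM_FNV, and at 1130 and 1154, then 1019, in BKM_Sox17 (1.29 ± 0.22, adjusted p = 1.52e-05). Stmn2 was lower in BKM_FNV, at 1240 and 1166, then 1260 and 1160, against 2533 and 2506, then 2768 (-1.13 ± 0.23, adjusted p = 0.000159). Tubb3 was at 1826 and 1669, then 2804 and 2579, against 2377 and 2424, then 4504, and was not called (-0.60 ± 0.28, adjusted p = 0.0795). The Sox17 gene itself was at 167 and 144, then 36 and 30, in BKM_FNV and at 1621 and 1707, then 2408, in BKM_Sox17 after Dox. Genes of the other delivered factors were higher in BKM_Sox17 as well. The Brn4 gene Pou3f4 was at 237 and 211, then 545 and 474, in BKM_FNV against 5876 and 6068, then 8134. Klf4 was at 621 and 622, then 36 and 38, against 2589 and 2768, then 2863. Myc was at 408 and 391, then 582 and 569, against 3025 and 3025, then 3435. The part of these levels in the difference was not tested.

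The change of the difference from the Dox period to the time after it was tested as an interaction. It was positive and called for 7 members (8.68% of all genes): Elavl3 by 7.26 ± 0.41, Neurog2 by 5.28 ± 0.39, Neurog1 by 4.99 ± 0.26, Dcx by 2.70 ± 0.15, Map2 by 1.96 ± 0.26, Elavl4 by 1.82 ± 0.13 and Tubb3 by 1.42 ± 0.34. For Tubb3 this was a narrowing of a deficit, not a change of sign. The Neurog1 value is a description, because that gene entered the test only through its levels in BKM_FNV after Dox. Neurod1 (2.05, adjusted p = 0.239) and Stmn2 (-0.82, adjusted p = 0.0164) were not called. With the doubted library in the fit, Dcx and Tubb3 were not called either.

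Against the Sox2 cocktail after Dox, 7 members were higher in BKM_FNV and none lower (8.72% of all genes were higher). BKM_Sox2 rested on 1 library a day and added no spread of its own. The SE here came from the groups with replicates in the whole table, which share the estimate of spread for each gene. Tubb3 was at 154 and then 15 there, a difference of 5.40 ± 0.31, and Stmn2 at 499 and then 84, a difference of 2.54 ± 0.25. Elavl3 (24 and 0) differed by 5.89 ± 0.38, Dcx (594 and 293) by 2.45 ± 0.14 and Elavl4 by 1.30 ± 0.12, and Neurog1 and Neurog2 were listed at 0 in BKM_Sox2. Neurod1 (157 and 89; 0.79, adjusted p = 0.665) and Map2 (2477 and 1227; 0.60, adjusted p = 0.0407) were not called. Between BKM_Sox17 and BKM_Sox2, 3 members were higher in BKM_Sox17 (4.74% of all genes): Tubb3 by 6.0 ± 0.34, Stmn2 by 3.67 ± 0.27 and Elavl3 by 1.95 ± 0.41. Fitted on these groups alone, the Elavl3 call was lost.

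The engineered factor was also delivered without Brn4 and c-Myc. K_FNV was lower than BKM_FNV in 8 members after Dox (10.8% of all genes), all but Neurod1. Elavl3 was at 7 and 2, then 1 and 0, in K_FNV (-6.81 ± 0.31), Dcx at 331 and 254, then 146 and 194 (-3.36 ± 0.11), and Map2 at 232 and 276, then 250 and 415 (-3.20 ± 0.19). Tubb3 was at 480 and 483, then 362 and 223 (-2.54 ± 0.25), Elavl4 differed by -1.67 ± 0.10, and Stmn2, at 567 and 901, then 264 and 396, by -1.32 ± 0.21. Neurog1 and Neurog2 were listed at 0 in all 4 K_FNV libraries. Neurod1, at 82 and 71, then 125 and 99, did not overlap with BKM_FNV but was not called (-1.14 ± 1.02, adjusted p = 0.371). In K_FNV the Sox17 gene was still at 3716 and 7284 at day 24, and at 174 and 167 at day 30. Klf4 was at 2342 and 2397, then 744 and 605, there. The part of these levels was not tested. The after-Dox comparisons of BKM_FNV share their BKM_FNV libraries.

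Between days 24 and 30, 5 members rose in BKM_FNV (6.89% of all genes) and none fell. Neurog1 rose by 3.00 ± 0.28, Elavl3 by 2.17 ± 0.44, Dcx by 1.96 ± 0.16, Map2 by 1.84 ± 0.28 and Neurog2 by 1.38 ± 0.41. The Neurog1 rise is a description, for the reason given above. The Neurog2 rise was lost without replicate 1 of either day, and the Dcx rise with the doubted library in the fit (adjusted p = 0.465). Elavl4 gained 0.74 ± 0.13 (adjusted p = 6.29e-05), short of 2-fold, and Tubb3 (0.62, adjusted p = 0.177) and Stmn2 (0.01, adjusted p = 1) were not called. K_FNV had 1 change in these days, a fall of Stmn2 by 1.14 ± 0.29 (2.75% of all genes fell) that was lost without day 24 replicate 2 or day 30 replicate 1.

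BKM_FNV cells at day 30 did not match primary NSCs in these genes. Of the 9 members 6 were higher than in NSCs and Map2 was lower (14.5% and 13.7% of all genes). Neurog1 exceeded NSCs by 4.58 ± 0.28, Elavl3 by 4.23 ± 0.44, Dcx by 3.69 ± 0.16, Tubb3 by 2.51 ± 0.36 and Elavl4 by 1.75 ± 0.13, while Stmn2 was listed at 0 in NSCs. Map2 was lower by 3.37 on the log2 scale. The Neurog1 excess is a description, for the reason given above. Neurog2 (-0.40, adjusted p = 0.449) and Neurod1 (0.23, adjusted p = 0.950) were not called.

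The established lines had fewer called members against NSCs. In iNSC_BKMF, Neurog1 was listed at 0 and was called lower, and Neurog2, at 70 and 93, was higher by 1.36 ± 0.41 (1% of all genes were lower and 1.02% higher). That Neurog2 call (adjusted p = 0.0490) was lost without either iNSC_BKMF library or NSC replicate 1. In iNSC_KF, 2 members were higher and 1 lower (4.79% and 4.09% of all genes): Elavl3 at 736 and 483 was higher by 3.62 ± 0.44, Tubb3 at 3168 and 3168 by 2.75 ± 0.36, while Neurog1 was listed at 0. Dcx was at 391 and 402 in iNSC_BKMF and at 703 and 483 in iNSC_KF, and was called in neither. The Neurog1 calls in both lines are a description, since they set 0 against 4 and 4 in NSCs, below the level of 10 needed for testing. With the doubted library in the fit both were lost, as was the Neurog2 call in iNSC_BKMF.

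Ordered over the 28 groups, no one cocktail led all members. BKM_FNV at day 30 had the highest mean level of Neurog1, Neurod1, Elavl3, Elavl4 and Dcx. For Neurod1 its 239.5 overlapped with 231 in iNSC_BKMF and 230.5 in iNSC_KF, and the Elavl3 mean of 908.5 was followed by 609.5 in iNSC_KF without overlap. BKM_Sox17 at day 8 led for Neurog2 (163.5), Tubb3 (6220) and Stmn2 (6694). The Stmn2 ranges of that group, of BKM_FNV at days 4 and 8 and of BKM_Sox17 at day 4 overlapped with their neighbours in the order. For Map2 the NSC and line libraries came first, followed by BKM_FNV at day 30.

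The wider neuronal programme was described with 5 lists of genes that hold no member. In BKM_FNV against BKM_Sox17 on Dox calls in these lists went both ways, where 2.29% of all genes were higher and 1.43% lower. Of 14 tested proneural and neuronal transcription factors (20 listed) 2 were higher and 2 lower, with a median of 0.01. Notch ligands and other partners of proneural factors had 1 lower of 10, other young neuron genes 2 lower of 22, later neuron and synapse genes 1 higher of 16, and inhibitors of neuronal genes no call in limma among 12, of which 5 had an unadjusted p under 0.05. The median of all genes was -0.03. Among the genes whose libraries did not overlap on any day, Myt1 was lower by 1.02 on the log2 scale (17 to 110 against 28 to 242), the Notch glycosyltransferase gene Mfng by 2.07 (2 to 12 against 15 to 116), and Nsg1 by 1.17 (121 to 298 against 240 to 624).

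After Dox the calls in these lists were in the direction of BKM_FNV with 1 exception. Of the 14 transcription factors 9 were higher in BKM_FNV than in BKM_Sox17 and none was lower (median 2.38), and of the 10 Notch-side genes 8 were higher (median 2.62), where the median of all genes was -0.09. Neurod4, at 1120 to 1192, and Nhlh2, at 206 to 1057, were listed at 0 in BKM_Sox17. The Notch ligand gene Dll1 was at 232 to 927 against 7 to 11 (5.55), and Dll3 at 122 to 557 against 0. Pou3f2, the Brn2 gene, was at 743 to 1943 against 1 to 74 (6.29). The SE of the difference was large for Neurod4 (1.95) and Pou3f2 (1.49), against 0.40 for Dll1. Ligands of the Notch pathway and proneural factors were thus high in the same libraries.

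Of 22 other young neuron genes 14 were higher and 1 lower (median 1.56), and of 16 later neuron and synapse genes 9 were higher (median 1.73). The neurofilament gene Ina was at 446 to 1471 against 2 and 2 (7.67), and Nefm at 291 to 1086 against 13 to 20 (5.03). Genes of transmitter identity were at lower levels: Gad1, for GABA synthesis, was at 34 to 135 against 0 to 10 (4.48), Gad2 at 91 to 260 against 0 to 43 (4.07), and Slc17a6, the vesicular glutamate transporter gene, at 96 to 158 against 0 to 29 (4.19). Among 12 inhibitors 4 were also higher (median 0.33): the Notch target genes Hes5 (21 to 340 against 0 to 2, 5.02) and Hey1 (69 to 282 against 29 to 32, 2.16), Id2 (1.65) and Notch1 (1.04). Rest, the repressor of neuronal genes in other tissues, was on this list and not among them. K_FNV against BKM_FNV was the mirror of this, with 12 of the 14 transcription factors, 9 of the 10 Notch-side genes and 15 of the 22 young neuron genes lower. Between BKM_Sox17 and BKM_Sox2 the calls went both ways, with 2 higher and 4 lower among the transcription factors and 7 higher and 1 lower among young neuron genes. Of all genes 4.74% were called higher there, and these made up 59.1% of all calls.

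**Figure D3:**
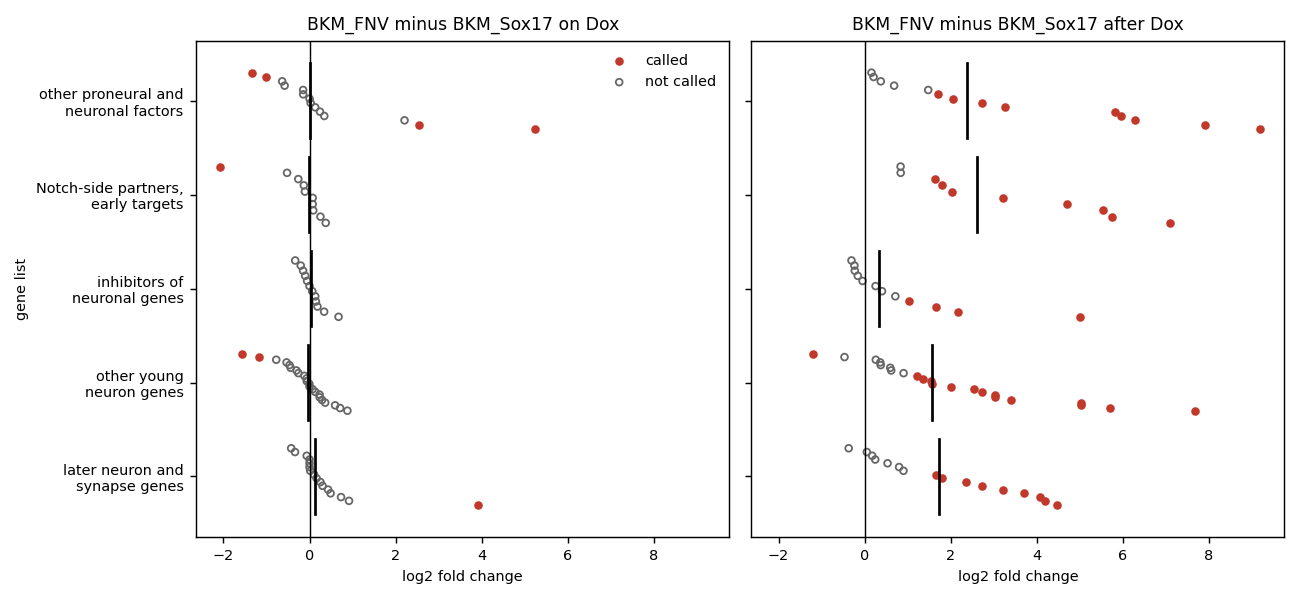
Log2 difference of BKM_FNV minus BKM_Sox17 (log2 of level plus 2) for each tested gene of the 5 lists, on Dox and after Dox; each point is 1 gene, red points were called, and the bar is the median of the list. On Dox the medians lay near 0, and after Dox they were 2.38, 2.62, 0.33, 1.56 and 1.73.

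Markers of other cell types moved in the same libraries. After Dox 10 of 12 neural stem cell markers were higher in BKM_FNV than in BKM_Sox17. Their summed level in BKM_FNV was 10160 to 10175 at day 24 and 22014 to 23011 at day 30, against 1623 to 1725 and 986 in BKM_Sox17 and 195511 to 195812 in NSCs. Fibroblast markers were at 196436 to 197066 and then 210240 to 217533 in BKM_FNV, with 1 of 8 higher and none lower than in BKM_Sox17, and above the 179336 to 179833 of MEFs. Neural crest and Schwann markers were at 830 to 941 and 1315 to 1374 in BKM_FNV, with 2 of 3 tested genes higher, and neuroendocrine markers at 913 to 975 at day 30, with 3 of 5 higher. All 8 pluripotency markers were higher too, at a summed 4556 to 4566 at day 24 and 386 to 426 at day 30, and 3 of 6 epithelial markers, at 9595 to 9617 and then 107 to 125. The neuroendocrine list shares Chga, Chgb, Insm1 and Neurog3 with the neuronal lists. The part of any of these cell types in the members' levels was not tested. Between days 24 and 30, when Neurog1, Elavl3, Dcx and Map2 rose, 7 of the 8 pluripotency markers and all 6 epithelial markers fell. Of all genes 6.89% were called higher between these days, and these made up 46.6% of all calls.

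In the parallel experiment KM_FNV cells in N2B27 at day 4 had 6 members above MEFs (9.88% of all genes) and none below. Stmn2 was at 5117 and 5970 (3.83 ± 0.33) and Tubb3 at 2605 and 3441 (1.74 ± 0.46). Elavl3 was at 33 and 36, Neurog2 at 9 and 18 and Dcx at 463 and 326, where MEFs had 0. Map2 at 1241 and 1148 was higher by 1.24 ± 0.46, a call lost without any 1 of the 4 libraries (the Tubb3 call was lost without day 4 replicate 2). From day 4 to day 8 no member was called in limma (4.71% of all genes were), and 3 had an unadjusted p under 0.05, namely Neurog2 (-1.60, adjusted p = 0.129), Tubb3 (-1.19, adjusted p = 0.109) and Stmn2 (-1.01, adjusted p = 0.0574).

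The move to NSC medium and the move to LIF/2i had different effects on these genes. At days 12 and 16, on Dox, 3 members were higher in LIF/2i than in NSC medium (8.07% of all genes) and none lower. Tubb3 was at 1389 and 1623, then 735 and 2567, in LIF/2i, and at 1204 and 1347, then 44 and 56, in NSC medium (2.49 ± 0.33, limma, adjusted p = 2.10e-05). The Tubb3 libraries did not overlap on either day, and the gap was wider at day 16. Elavl3 was at 48 and 85, then 43 and 142, in LIF/2i and at 15 and 19, then 3 and 4, in NSC medium (2.84 ± 0.52, adjusted p = 0.000403). Neurog1 was at 2 and 2, then 3 and 4, in LIF/2i and listed at 0 in NSC medium. It reached 10, the level needed for testing, in 4 libraries of this experiment, all in LIF/2i or NSC medium after Dox. Calls of Neurog1 in this experiment are therefore a description. Map2 had dropped in both media by day 12: from 1093 and 989 in N2B27 at day 8 to 307 and 285 in NSC medium (by 1.81 ± 0.46) and to between 210 and 517 in all LIF/2i libraries (by 1.29 ± 0.46 at day 12, a call lost without LIF/2i replicate 1 or either N2B27 library). Those day 12 comparisons called 1 member higher and 2 lower in NSC medium (7.43% and 8.73% of all genes) and Map2 only, as lower, in LIF/2i (7.64%). The other 2 calls in NSC medium depended on single libraries: Stmn2 rose from 4792 and 1569 to 6728 and 6532 and was not called without N2B27 replicate 2, and Dcx was at 0 in 1 day 12 library and 272 in the other. The Dcx call was lost without NSC medium day 12 replicate 1 (-0.45) and without either N2B27 day 8 library.

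After Dox, levels in NSC medium at day 24 depended on the library. Dcx was at 284 and 343 at day 20 and at 2545 and 640 at day 24. Elavl3 was at 6 and 12, then 520 and 53, and Map2 at 373 and 380, then 3440 and 939. Tubb3 was at 186 and 232, then 2739 and 1038, Neurog1 at 1 and 0, then 20 and 3, and Neurog2 at 0 and 0, then 27 and 3. In each of these 6 genes replicate 1 of day 24 was far above replicate 2, and both were above day 20. Replicate 1 also had the higher sum of neural stem cell markers (8063 against 4102) and of neural crest markers (989 against 186), and the lower sum of pluripotency markers (2033 against 7644). Their part in the difference was not tested.

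Against the Dox days in NSC medium, these 6 members rose and Stmn2 fell (11.2% and 9.33% of all genes). Map2 rose by 1.77 ± 0.32, Elavl3 by 2.06 ± 0.52, Dcx by 3.12 ± 0.97, Tubb3 by 1.21 ± 0.33, Neurog1 by 1.34 ± 0.37 and Neurog2 by 1.30 ± 0.47, and Stmn2, at 1333 and 983, then 1389 and 1108, fell by 1.90 ± 0.23. Without day 24 replicate 1, 3 of these 7 calls were left, namely Map2 (1.30), Elavl3 (1.25) and Stmn2 (-1.98). The Neurog2 call was also lost without any 1 library of days 12, 16 or 20, and the Dcx difference was 1.34 without day 12 replicate 1, which was listed at 0. In LIF/2i, Tubb3 fell after Dox by 1.34 ± 0.33 (to 1012 and 626, then 376 and 436) and Stmn2 by 1.84 ± 0.23 (from 4861 and 4507, then 5744 and 6728, to 1909 and 1783, then 1096 and 1379), and Neurog1 rose by 1.32 ± 0.37 to 10 and 15, then 11 and 5 (5.16% and 6.4% of all genes). The Tubb3 fall was lost without day 16 replicate 2 and the Neurog1 rise without day 24 replicate 1. The Neurog1 changes in both media are descriptions, for the reason given above. Dcx in LIF/2i stayed between 245 and 563.

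Between the media after Dox, Map2 was lower in LIF/2i by 1.58 on the log2 scale (adjusted p = 0.000647) and Neurog1 was higher by 1.20 (12.3% and 12.2% of all genes). The Map2 libraries of the 2 media overlapped at day 20 and not at day 24. Those of Neurog1 overlapped at day 24 (11 and 5 in LIF/2i, 20 and 3 in NSC medium) and not at day 20 (10 and 15, 1 and 0). The Neurog1 call, a description as set out above, was lost without LIF/2i day 24 replicate 1 or NSC medium day 24 replicate 2. The difference between media changed with Dox removal for Elavl3 by -3.34 ± 0.73, Tubb3 by -2.55 ± 0.46 and Map2 by -2.27 ± 0.46 (7.36% of all genes were called lower), all towards NSC medium, and these 3 remained called without day 24 replicate 1 in NSC medium (-2.53, -2.20 and -1.80). Against primary NSCs, KM_FNV cells in NSC medium at day 24 had 3 members higher and 2 lower (16.4% of all genes in either case). Stmn2 was listed at 0 in NSCs, Tubb3 was higher by 1.86 ± 0.46 and Elavl4 (932 and 527) by 1.04 ± 0.27, and Map2 was lower by 5.04 and Neurog2 by 1.64 on the log2 scale. The Tubb3 and Elavl4 calls were lost without day 24 replicate 1 in NSC medium, and the Neurog2 call without replicate 2. The Elavl4 and Neurog2 calls were also lost without NSC replicate 2.

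**Figure D4:**
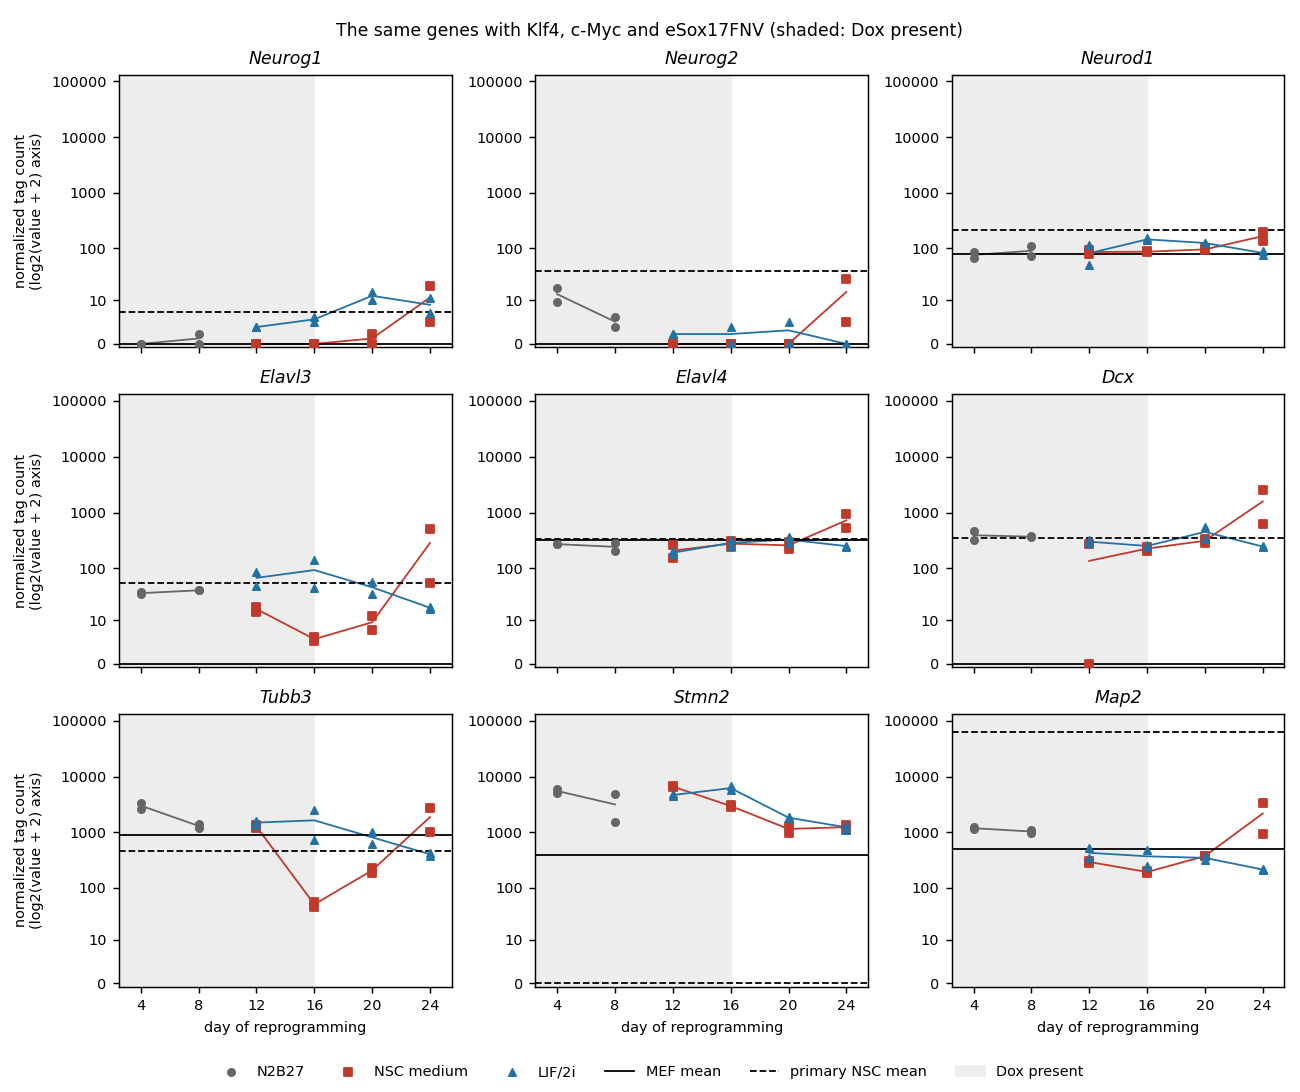
Levels (vertical axis, log2 of level plus 2) of the 9 genes by day (horizontal axis) in the parallel experiment, in N2B27, NSC medium and LIF/2i; each point is 1 library, lines join group means, the shaded span is the Dox period, and horizontal lines give the MEF mean (solid) and the NSC mean (dashed). At day 24 in NSC medium the 2 libraries were far apart, for example 2545 and 640 for Dcx.

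Genes with a pattern like that of each member were taken by Pearson correlation of group means over the 28 groups, which share cultures, days and normalization, so the values are a description. Neurog1 was closest to Slc6a5 (0.952), the glycine transporter gene of inhibitory neurons, and to the homeobox genes Otp (0.949) and Dbx1 (0.938). Elavl3 had Rragd (0.856), the sodium channel gene Scn8a (0.813) and Myt1 (0.813), and Dcx had the contactin gene Cntn3 (0.893). Tubb3 was closest to Crmp1 (0.831), which encodes a collapsin response mediator protein. Stmn2 was closest to Aass (0.969), Pctp (0.950) and Tagln2 (0.950), and Map2 to Kat6a (0.943), the splicing factor gene Nova1 (0.941) and Npas3 (0.937). For Neurog2 the closest was Tgs1 (0.822), for Neurod1 Lrguk (0.834) and for Elavl4 Fbxl19 (0.868). Among the members themselves the closest pair was Neurog1 and Elavl4 (0.779) and the farthest Stmn2 and Map2 (-0.808). The 9 genes therefore did not share 1 pattern across these groups.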

How the data were processed

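RNA was sequenced from oligo(dT)-selected mRNA of mouse cells. Per the submitters' processing notes, tools were Bowtie2 2.0 and RSEM with mm10, and what was deposited is a normalized tag count per gene, treated here as a score because it is neither a raw count nor a per-million unit. The authors' normalization is not given in the sources used here. All values were whole numbers, and every column of a table had the same highest value (78139 and 87546). The 2 tables were normalized apart from each other and were tested apart. Of their columns, 4 matched no labelled sample and were not used.

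Groups were taken from the labels; the columns of primary NSCs match their group only. Values were analysed as log2 of the value plus 2 in R 4.3.3 by limma 3.58.1 (group means as coefficients, variance trended on the mean). Genes needed a value of 10 or more in 2 or more libraries, which left 20760 in the first table and 20468 in the parallel one. Tests were two-sided, with Benjamini-Hochberg adjustment over all genes for each of 38 comparisons. The fit was tested on simulated data. All 9 members were tested in every comparison, and any of them could be named. From each list, up to 4 called genes with the largest change whose libraries did not overlap could be named, and for likeness the 3 genes with the highest correlation, among genes with at least 100 in 1 library. The members and lists were chosen with earlier results of these data known. Alternatives were other pseudocounts, filters and scalings, each library left out, the compared groups alone, the replicate number as a block, and the doubted library included.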

Additional observations from a re-analysis of the deposited data

Results flagged for a closer look

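Several differences between groups were themselves different between conditions, by a test of the interaction. The difference between BKM_FNV and BKM_Sox17 changed from the Dox days to the time after Dox, in the direction of higher levels in BKM_FNV, by 7.26 on the log2 scale for Elavl3, 5.28 for Neurog2, 4.99 for Neurog1, 2.70 for Dcx, 1.96 for Map2, 1.82 for Elavl4 and 1.42 for Tubb3, where a deficit narrowed. The Neurog1 value is a description, since that gene was tested only because of its high levels in BKM_FNV after Dox. With the doubted BKM_Sox2 library in the fit, the Dcx and Tubb3 calls were lost. The same difference was lower at days 12 and 18 than at days 4 and 8 by -1.87 for Tubb3, a call that was also lost with that library. In the parallel experiment the difference between LIF/2i and NSC medium was lower after Dox than on Dox by -3.34 for Elavl3, -2.55 for Tubb3 and -2.27 for Map2.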

How the results depend on the processing

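The fold changes followed here were the called ones and, for BKM_FNV minus BKM_Sox17 on Dox, those of all members, called or not. None of these 147 reversed under any alternative. The replicate numbers only share a number: correlations of same-numbered deviations ran from -0.0756 to 0.0918 over 276 pairs of groups in the NSC-medium table. The replicate block moved none of 33 counts of called members (for example 3 for BKM_FNV minus BKM_Sox17 on Dox, 8 after Dox). Among 123 of the followed fold changes it lost 1 call, named above. With the doubted library, 18 of 114 followed fold changes lost a call. Fitted on the compared groups alone, the number of called members went from 3 to 1 at days 12 and 18 and from 0 to 1 at day 4 (BKM_FNV minus BKM_Sox17), from 4 to 2 for BKM_Sox2 day 18 minus day 4, from 5 to 2 for KM_FNV day 24 minus NSCs, from 1 to 0 for K_FNV day 30 minus day 24, from 2 to 1 for LIF/2i minus NSC medium after Dox, from 7 to 3 for NSC medium after minus on Dox, and from 2 to 0 for iNSC_BKMF minus NSCs. With the doubted library it went from 1 to 0 for the late against early test, from 4 to 2 for day 18 minus day 4 in BKM_Sox2 and in K_FNV, and to 0 for K_FNV day 30 minus day 24 and for iNSC_BKMF. A pseudocount of 8 gave 0 for BKM_FNV minus BKM_Sox2 on Dox and 1 for LIF/2i minus NSC medium after Dox and for iNSC_BKMF, and 0.5 gave 2 for K_FNV day 30 minus day 24 and 1 for iNSC_BKMF. A minimum of 50 gave 1 for LIF/2i minus NSC medium after Dox and 1 for iNSC_BKMF, size factors gave 1 for iNSC_BKMF, and quantile normalization again gave 2 for K_FNV day 30 minus day 24. With each library left out, the counts ran from 1 to 2 for BKM_FNV minus BKM_Sox2 on Dox and for iNSC_BKMF, 3 to 6 for KM_FNV day 24 minus NSCs, 0 to 1 for K_FNV day 30 minus day 24, LIF/2i day 12 and N2B27 day 8 minus day 4, 1 to 3 for LIF/2i minus NSC medium after Dox and for NSC medium day 12, and 3 to 8 for NSC medium after minus on Dox. The cause of these changes was not tested.

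Over all genes, the doubted library lowered the calls of BKM_FNV minus BKM_Sox17 from 772 to 448 on Dox (by day 305 to 35, 951 to 205, 995 to 258 and 814 to 199), from 436 to 54 late against early, from 3699 to 2266 after Dox and from 3373 to 1728 in the interaction. It raised those of BKM_FNV minus BKM_Sox2 after Dox from 3144 to 6694. It also lowered 826 to 536 (BKM_Sox17 minus BKM_Sox2 on Dox), 4255 to 2268, 3890 to 2025, 4011 to 2166 and 3728 to 1764 (day 4 minus MEFs for BKM_FNV, BKM_Sox17, BKM_Sox2 and K_FNV), 4752 to 2113, 3953 to 1706, 3520 to 1470 and 2154 to 737 (day 18 minus day 4 in that order), 3070 to 1413 and 942 to 276 (day 30 minus day 24, BKM_FNV and K_FNV), 5861 to 3600 (BKM_FNV day 30 minus NSCs), 420 to 93 (iNSC_BKMF) and 1844 to 708 (iNSC_KF). The compared groups alone gave 497 at day 12, 253 at day 18, 212 for K_FNV day 30 minus day 24, 69 for iNSC_BKMF, 776 for iNSC_KF and 342 of 964 for N2B27. Leaving out 1 library gave as few as 197 at day 4, 612 at day 8 and 540 for N2B27, and as many as 634 for iNSC_BKMF. Size factors shifted the median of all genes by over 0.1 in 4 of 38 comparisons, at most 0.277, and moved the share of calls that were higher from 57 to 71.6% (K_FNV day 4 minus MEFs), 57.6 to 68.1% (BKM_FNV minus BKM_Sox2 after Dox), 51.5 to 62.1% (BKM_FNV day 30 minus NSCs), 63.7 to 78% (N2B27) and 50 to 65.6% (KM_FNV day 24 minus NSCs). Read depth is unknown, so low levels of Neurog1 and Neurog2 carry no detection limit.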
